A study of Mus musculus with 5 samples.

Results

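Regulatory T cells (Tregs) sorted from the adipose tissue of 10-month-old C57BL/6 mice were compared, gene by gene, between a library labelled Med23 KO and a Foxp3Cre control library. A gene was included when its deposited scaled read count was 1 or more in either library, which kept 13549 of the 47069 gene IDs in the table. The control mice carried Foxp3Cre alone. The mice of the library labelled Med23 KO carried Med23fl/fl and Foxp3Cre, so Cre is made where Foxp3, the lineage-defining gene of Tregs, is active and is meant to delete the floxed part of Med23 in those cells. Each group was 1 library, and neither the sort gate nor any pooling of animals is given in the sources used here. With 1 library on each side no spread between animals could be measured, so no difference has a replicate check and no p-value is given. The other 3 libraries of the series served only to place values. They were Foxp3Cre Tregs from lymph nodes (LN) of 4-month-old mice and Foxp3Cre adipose Tregs from 4-month-old obese mice (titled HFD, which commonly stands for a high-fat diet) and from 4-month-old mice called lean here because their labels name no obesity.

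Mediator is the multi-subunit complex that carries signals from DNA-bound transcription factors to RNA polymerase II. Med23 is a subunit of its tail, known for linking Mediator to the MAPK-activated factor Elk1 and to insulin signalling in fat cell precursors. Adipose Tregs are a tissue Treg population that depends on the nuclear receptor PPARγ and on IL-33, which acts through the receptor ST2. They accumulate with age in the visceral fat of lean mice, produce IL-10 and restrain inflammation there.

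The targeted gene did not follow the label. Med23 had a scaled count of 13.9 (71 reads) in the library labelled Med23 KO and 7.02 (61 reads) in Foxp3Cre, which is 1.98-fold higher (1.39 to 2.84). The bracket holds the exact 95% Clopper-Pearson interval of the fold, conditional on the summed reads of the gene, and here as elsewhere it covers counting error only. A count per gene cannot show whether a floxed segment is missing, because reads from the rest of the transcript are counted too. Every direction below is therefore that of the library labelled Med23 KO, and loss of Med23 was not seen in these values. To set all 5 libraries side by side, although their tables were scaled separately, the reads of each gene were expressed per 1000000 listed reads of the library (CPM). On this scale Med23 was at 15.5 in the library labelled Med23 KO, 6.32 in 10-month Foxp3Cre, 46.8 in lean, 33.3 in obese and 6.4 in LN. Both 10-month libraries were thus below both 4-month adipose libraries.

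The library labelled Med23 KO held 4595046 listed reads and the Foxp3Cre library 9650769. Both held genes that define the sorted cell, with Foxp3 at 139.5 and 206 scaled counts, Cd4 at 119.9 and 135, and Cd3e at 191 and 237, the library labelled Med23 KO first. On the scale of log2((value + 1)/(value + 1)), 3877 genes (28.6% of those measured) were at least 2-fold higher in the library labelled Med23 KO and 4730 (34.9%) at least 2-fold lower, with a median of -0.15. Where the mean of both values reached 100 (2068 genes), 221 (10.7%) lay above 2-fold and 407 (19.7%) below it. These shares are the background for the lists below, and a list near them shows nothing of its own. Lists are set against all measured genes unless stated. For lists of abundant genes the smaller shares at a mean of 100 or more are the nearer background. Scaling both libraries to the same total turned the split to 4501 higher and 4295 lower and moved the median of all genes to 0.14.

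**Figure D1:**
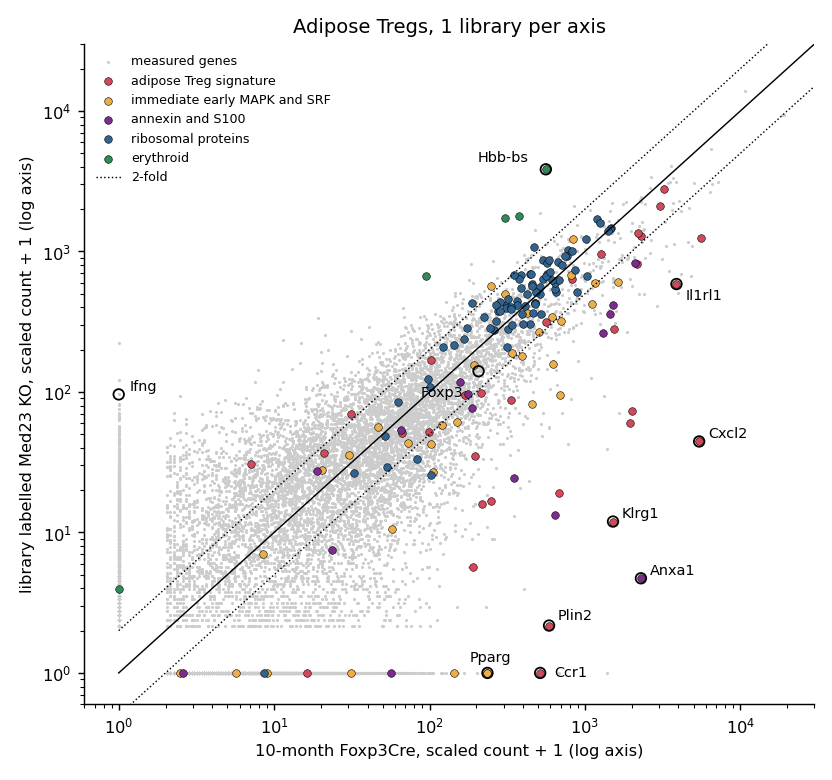
Scaled count + 1 of each measured gene in 10-month Foxp3Cre adipose Tregs (x, log axis) and in the library labelled Med23 KO (y, log axis), 1 library per axis, with 5 gene lists in colour, the line of equality and dotted lines at 2-fold. The ringed genes at the lower right (Cxcl2, Il1rl1, Klrg1, Anxa1, Plin2, Ccr1, Pparg) were lower in the library labelled Med23 KO, Foxp3 (139.5 against 206) lay between the dotted lines, and Ifng was listed at 0 in Foxp3Cre.

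Genes known to mark adipose Tregs were mostly lower in the library labelled Med23 KO. An adipose Treg signature had 33 measured genes, with a median log2 ratio of -1.94. Of them, 19 were lower by 2-fold or more (57.6% against 34.9% of all genes) and 2 were higher (6.06% against 28.6%). Their summed scaled counts were 13331 in the library labelled Med23 KO against 41387 in Foxp3Cre. Bulk RNA cannot tell fewer cells of a kind from less RNA per cell, so these sums may stand for either.

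Pparg, the nuclear receptor that adipose Tregs depend on, was listed at 0 (no reads) in the library labelled Med23 KO and at 235 scaled counts (2043 reads) in Foxp3Cre. Against a floor of 3 reads in the library, Pparg was at least 400.3-fold lower. Its CPM was 212 in 10-month Foxp3Cre, 42 in lean, 31.5 in obese and 0 in LN. For Pparg the library labelled Med23 KO was thus level with LN and below each of the 3 Foxp3Cre adipose libraries. The target genes of PPARγ did not all share this. Plin2, which coats lipid droplets, was at 1.17 against 587 scaled counts, 499.9-fold lower (229.5 to 1363). Cd36, which encodes a fatty acid transporter, was at 29.9 against 6.1, 4.91-fold higher (3.57 to 6.85).

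The receptor of IL-33 was lower but far from lost. Il1rl1, which encodes ST2, was at 585 against 3882 scaled counts, 6.63-fold lower (6.39 to 6.89). Its 651 CPM in the library labelled Med23 KO stood below 3497 in 10-month Foxp3Cre, 2886 in lean and 1028 in obese, and above 46.5 in LN. Gata3, the transcription factor that works with ST2 in tissue Tregs, was at 312 against 561, only 1.8-fold lower (1.7 to 1.9), and its 347 CPM lay between the obese (291) and lean (511) libraries. Klrg1, an inhibitory receptor of differentiated tissue Tregs, was at 11 against 1516, 138-fold lower (106 to 183). At 12.2 CPM it was below LN (82.5) as well as below lean (458) and obese (170.3).

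Some secreted products were lower and others were not. Il10, which encodes the anti-inflammatory cytokine IL-10, was at 59.1 against 1938 scaled counts, 32.8-fold lower (29.3 to 36.9). In CPM it was 65.7 in the library labelled Med23 KO, 78.1 in LN and 587, 1058 and 1746 in the obese, lean and 10-month Foxp3Cre adipose libraries. Areg, which encodes the tissue repair factor amphiregulin, was at 815 against 2159.6, 2.65-fold lower (2.56 to 2.74). Its 906 CPM stayed above obese (608) and LN (43). Fgl2, a secreted suppressor of T cells, was 5.53-fold lower (5.24 to 5.85), and Gzmb, the cytotoxic granule protease granzyme B, was 5.69-fold lower (4.87 to 6.69). Penk, which encodes the opioid precursor proenkephalin, was at 1026 against 700.0 scaled counts, 1.47-fold higher (1.41 to 1.52). Tgfb1, which encodes TGF-β1, was at 50.1 and 53.8, and Ltb, which encodes lymphotoxin-β, at 219 and 228.

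Transcription factors of the signature had ratios of very different size. Irf4, which drives effector Treg differentiation, was at 15.8 against 248 scaled counts, 15.6-fold lower (12.5 to 19.8), and its partner Batf at 15.1 against 216, 14.3-fold lower (11.4 to 18.2). Batf at 16.8 CPM was below all other libraries, which ran from 109.5 in obese to 231 in lean. Id2, which restrains E proteins, was 4.52-fold lower (4.4 to 4.64). Smaller ratios were found for Rora, 1.79-fold lower (1.74 to 1.84), and Prdm1, which encodes Blimp-1, 1.94-fold lower (1.68 to 2.23). Dgat1, the last enzyme of triglyceride synthesis, which was at 17.9 CPM in LN and 4614 in lean, was nearly level at 2802 against 3209.9 scaled counts. Transcription factors as a wider list of Treg and helper cell regulators had no shared direction, with 8 of 27 measured higher (29.6%), 6 lower (22.2%) and a median of 0.14. Among its members, Bhlhe40 was at 501 against 292 scaled counts, Maf at 418 against 349, and Bcl6 was 2.27-fold higher (1.93 to 2.68).

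On the CPM scale, 19 of the 33 signature genes were below all 3 Foxp3Cre adipose libraries in the library labelled Med23 KO and 2 were above all 3, while 23 were still above LN and 7 below it. The control side stood out as well. The 10-month Foxp3Cre library was above both 4-month adipose libraries for 19 of the 33 genes, and the library labelled Med23 KO was below both for 20. The 4-month adipose libraries differ from the 10-month ones in age and in Xist, the RNA of X inactivation in females, which was at 602 and 440.4 CPM in the 10-month libraries against 0 in lean and 3.6 in obese. The 4-month LN library held 228 CPM of Xist and was thus nearer to the 10-month libraries. What age or sex adds to these placings was not tested.

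**Figure D2:**
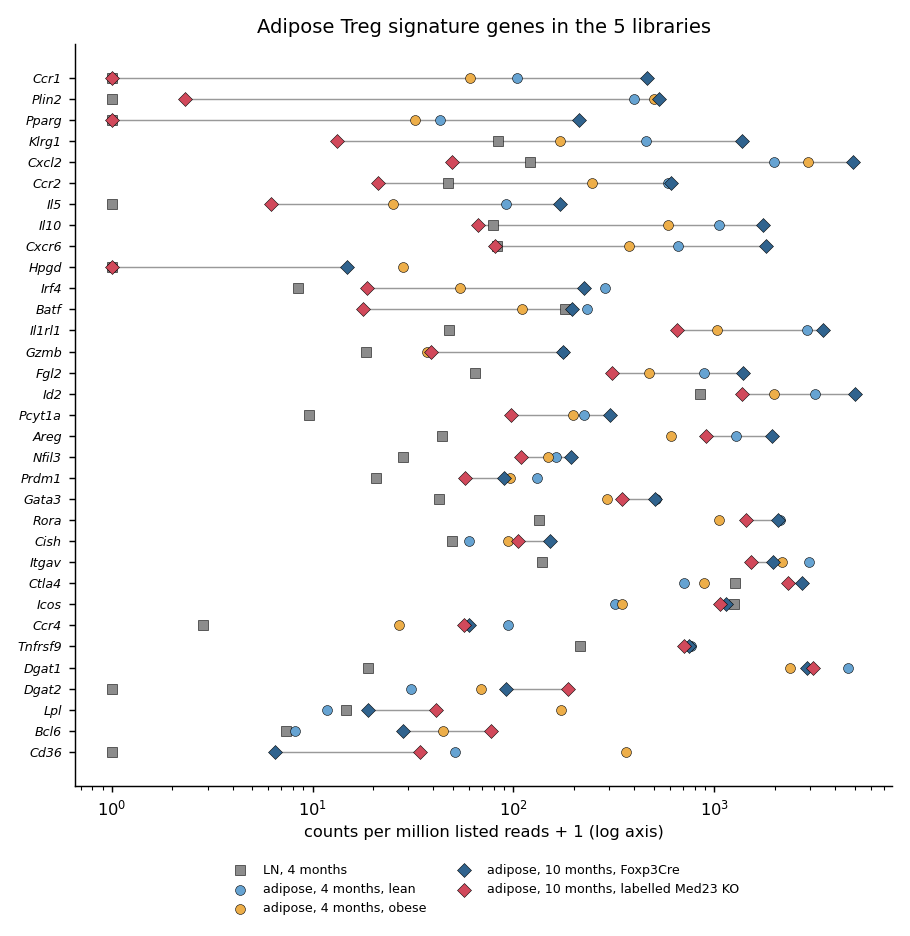
CPM + 1 (log axis) of the 33 measured adipose Treg signature genes in all 5 libraries, 1 library per symbol, ordered by the ratio of the library labelled Med23 KO to 10-month Foxp3Cre, which a grey line joins. For Pparg and Ccr1 the library labelled Med23 KO sits with LN at 0, for Klrg1 and Ccr2 it sits below LN, and for Gata3, Rora and Areg it sits among the adipose libraries.

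Receptors for chemokines, which place T cells in tissue, were lower in larger part than genes at large. Of 15 measured, 10 were at least 2-fold lower (34.9% of all genes were) and 2 higher, with a median of -1.41. Ccr1 was listed at 0 in the library labelled Med23 KO, where 1 read could be recovered, and at 514 scaled counts (4473 reads) in Foxp3Cre, a ratio of 2629 (472 to 103875). Ccr2, the receptor of CCL2, was at 18.2 against 677, 37.2-fold lower (30.3 to 46.2). Ccr3, the receptor of eotaxins, was at 2.93 against 404, 138-fold lower (83.4 to 246). These 3 inflammatory receptors were at or below LN, where Ccr1 was at 0, Ccr2 at 46 and Ccr3 at 11 CPM against 0, 20.2 and 3.26 in the library labelled Med23 KO. Cxcr6 was at 72 against 2007 scaled counts, 27.9-fold lower (25.1 to 31), and Ccr8, a marker of highly activated tissue Tregs, at 111 against 659.8, 5.97-fold lower (5.47 to 6.52).

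Receptors of circulating cells did not share the direction. Ccr7, which guides cells to lymph nodes, was at 299.8 against 254 scaled counts, 1.18-fold higher (1.1 to 1.26). S1pr1, which lets cells leave lymphoid tissue, was 2.04-fold higher (1.86 to 2.23). Ccr4, a skin and tissue homing receptor, was at 50.1 against 65.6.

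The genes that define Tregs as a lineage were near level as a list. Of 23 measured core Treg genes, 6 were higher and 5 lower (28.6% and 34.9% of all genes), with a median of 0.03. Foxp3 was 1.47-fold lower (1.35 to 1.61), and its CPM of 155 was close to the 180.1 of obese and above the 52.5 of LN. Ikzf2, which encodes Helios, was at 3372 against 2672 scaled counts, 1.26-fold higher (1.24 to 1.29). Ctla4, the inhibitory receptor that strips costimulatory ligands, was at 2102 against 3049, 1.45-fold lower (1.42 to 1.48).

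Single members of this list lay far from level on both sides. Il2ra, the high-affinity chain of the IL-2 receptor, was at 307 against 1568 scaled counts, 5.1-fold lower (4.84 to 5.38), while Il2rb, the signalling chain, was at 265 and 282. In CPM, Il2ra at 342 was near obese (307) and LN (291) and far from lean (1519.6). Tnfrsf4, which encodes the costimulatory receptor OX40, was 3.96-fold lower (3.86 to 4.07), and Capg, an actin-capping protein, 31.6-fold lower (23.2 to 44.1). Lrrc32, which encodes GARP, the surface anchor of latent TGF-β, was at 329 against 93.6, 3.52-fold higher (3.24 to 3.83). Ikzf4, which encodes Eos, was 2.99-fold higher (2.68 to 3.33), Nrp1, which encodes neuropilin-1, 2.32-fold higher (2.15 to 2.49), and Satb1, a genome organizer of early Treg development, 3.46-fold higher (3.26 to 3.68). For Lrrc32, Ikzf4, Nrp1 and Satb1 the library labelled Med23 KO had more CPM than any of the other 4 libraries.

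Genes of naive and lymphoid T cells went both ways. Of 21 measured, 7 were higher (33.3%, near the 28.6% of all genes) and 4 lower (19.0% against 34.9%), with a median of 0.48. Tcf7, which encodes the stem-like T cell factor TCF-1, was at 80.2 against 10.4 scaled counts, 7.75-fold higher (6.16 to 9.85). Bach2, a repressor of effector programs, was at 58.5 against 10.2, 5.72-fold higher (4.5 to 7.33). In 10-month Foxp3Cre both were below every other library, with Tcf7 at 9.33 CPM against 25.1 in lean and 146 in LN, and Bach2 at 9.22 against 29.1 in LN. Others of this list went down. Klf2, which maintains quiescence and lymph node homing, was at 45.8 against 163, 3.56-fold lower (3.1 to 4.1), Il7r, the IL-7 receptor chain, was 3.09-fold lower (2.97 to 3.21) and Il6ra was at 1.37 against 16.6, 12.1-fold lower (5.72 to 30.6).

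Of 25 measured effector and checkpoint genes, 15 were lower (60% against 34.9% of all genes) and 1 was higher, with a median of -1.87. Tnfrsf1b, which encodes TNF receptor 2, was the higher one, at 385 against 139 scaled counts, 2.78-fold higher (2.59 to 2.99). The inhibitory receptors Pdcd1 (PD-1) and Tigit were 4.08-fold lower (3.7 to 4.51) and 3.69-fold lower (3.39 to 4.03). Cd44, the adhesion receptor raised on antigen-experienced cells, was 4.18-fold lower (3.99 to 4.39). Of the 25 genes, 11 also belong to the adipose Treg signature or to the annexin list, so the lists are not separate.

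Cytokine genes other than Il10 also went apart. Il5, the eosinophil growth factor, was at 4.7 against 188 scaled counts, 40.1-fold lower (26.9 to 62.8). Csf2, which encodes GM-CSF, was listed at 0 (no reads) against 45.9, at least 78.2-fold lower. Ifng, the type 1 cytokine interferon-γ, was at 95.1 scaled counts (486 reads) in the library labelled Med23 KO and listed at 0 (no reads) in Foxp3Cre, at least 276-fold higher. The unusual library for Ifng was the control, because Ifng was at 106 CPM in the library labelled Med23 KO, 131 in LN, 118 in lean and 138 in obese. Lta, which encodes lymphotoxin-α, was at 40.9 against 2.42 scaled counts, 16.9-fold higher (10.8 to 27.9), with 272 CPM in LN and 0 in lean and obese. Tbx21, which encodes T-bet, the type 1 regulator, was 5.48-fold higher (3.52 to 8.78) at low values (17 against 3.11). Of the 11 cytokine genes measured, 2 were higher and 5 lower, and the median of -0.10 turned to 0.20 with equal totals.

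The lowest ratio among the named genes belonged to a chemokine. Cxcl3 had no read in the library labelled Med23 KO and 12010 reads (1381 scaled counts) in Foxp3Cre, at least 2353-fold lower. Cxcl2 was at 43.4 against 5433 scaled counts, 125-fold lower (109.6 to 143), and Cxcl5 had no read against 2125, at least 416-fold lower. All encode ligands of the neutrophil receptor CXCR2, and their genes stand close together on chromosome 5. In CPM, Cxcl2 was at 48.3 in the library labelled Med23 KO against 119 in LN, 1983 in lean, 2912 in obese and 4895 in 10-month Foxp3Cre. Cxcl3 was at 351 in lean, 147 in obese and 1244 in 10-month Foxp3Cre, and at 0 in LN. Ier3, an early response gene known as an NF-κB target, had 2 reads against 2039, a ratio of 599 (166 to 4952).

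The 250 bases before the start of Cxcl2, Cxcl3 and Ier3 are shown because these genes, all known to be induced by NF-κB, were among the 15 lowest named genes and hold a match to the NF-κB motif, in capitals. They were chosen after both were known. The sequences are from RefSeq on build GRCm38.p6, plus strand, at chr5:90903649-90903898, chr5:90785851-90786100 and chr17:35821463-35821712, in that order.
Cxcl2: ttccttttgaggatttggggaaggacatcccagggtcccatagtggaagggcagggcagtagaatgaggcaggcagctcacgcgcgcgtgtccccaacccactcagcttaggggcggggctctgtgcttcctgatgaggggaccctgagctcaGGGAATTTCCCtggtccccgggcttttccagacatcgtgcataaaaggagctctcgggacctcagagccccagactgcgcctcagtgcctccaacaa
Cxcl3: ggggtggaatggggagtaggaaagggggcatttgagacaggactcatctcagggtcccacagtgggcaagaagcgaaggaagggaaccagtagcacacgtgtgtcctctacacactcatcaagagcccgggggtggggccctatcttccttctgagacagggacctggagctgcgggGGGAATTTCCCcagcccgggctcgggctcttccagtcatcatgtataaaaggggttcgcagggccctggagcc
Ier3: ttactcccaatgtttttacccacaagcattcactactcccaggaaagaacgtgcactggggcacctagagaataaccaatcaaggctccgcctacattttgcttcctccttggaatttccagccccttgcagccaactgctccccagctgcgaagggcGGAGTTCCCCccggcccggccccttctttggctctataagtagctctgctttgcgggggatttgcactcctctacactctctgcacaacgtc

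Cxcl2 and Cxcl3 hold the same letters, GGGAATTTCC, beginning 97 and 73 bases before the start, and in both another match overlaps it 1 base further on. Ier3 holds GGAGTTCCCC, beginning 92 bases before the start. The NF-κB motif, searched on both strands, was present in 7.25% of 32851 promoters of the same table and read over the same length. The AP-1 motif TGANTCA (6.75% of promoters), the cAMP response element TGACGTCA (1.55%) and the CArG box of SRF (1.47%) had no match in these 3 windows. Of the 15 lowest genes, 11 are in the promoter table, and 5 of these hold an NF-κB match, Ccr1 and Plin2 besides the 3 shown. None of the 11 holds a match to the other motifs. These 11 were counted by gene, over any of its promoters, and on that count 8.23% of 27025 genes hold an NF-κB match. Cxcl5, Egr1, Psmg2 and Klrg1 are the 4 not in the table. A match describes letters and is not evidence of binding. The 3 genes shown and the 15 lowest were all picked by their ratios, so neither count says anything of NF-κB targets in general. Whether the motif is more frequent among lower genes was not tested.

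NF-κB subunits and targets as a list had a share of lower genes like that of all measured genes. Many of them had a mean of 100 or more, where the background share was smaller (19.7% lower and 10.7% higher). Of 20 measured, 7 were lower (35% against 34.9%) and 1 was higher, with a median of -0.80. Nfkbia, the inhibitor that NF-κB itself induces, was at 724 against 3479 scaled counts, 4.81-fold lower (4.65 to 4.98). Bcl2a1d, a survival gene of the BCL-2 family, was 3.42-fold lower (3.26 to 3.59), and Gadd45b was 2.89-fold lower (2.73 to 3.06). Tnfaip3, the deubiquitinase A20 and another induced inhibitor, was level at 2258 and 2305, as was Nfkb1 at 1388 and 1428. Rela, the main activating subunit, was the higher one, at 168 against 63, 2.66-fold higher (2.39 to 2.97). Targets thus differed widely in how far they were from level.

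Immediate early genes, which MAPK signalling and SRF with its Elk partners switch on within minutes, were lower in large part. Of 33 measured, 18 were at least 2-fold lower (54.5% against 34.9% of all genes) and 1 was higher (3.03% against 28.6%), with a median of -1.13. Egr1, a zinc finger factor induced through Elk1 and SRF, had 2 reads in the library labelled Med23 KO against 1236 in Foxp3Cre, a ratio of 363 (100.4 to 3003). Dusp6, the phosphatase that ERK induces against itself, had no read against 261, at least 51.1-fold lower. Egr2 had no read against 70, at least 13.7-fold lower. Egr1, Egr2 and Dusp6 were thus at or near 0, whereas other zinc finger genes of the list were not, since the library labelled Med23 KO held 421 scaled counts of Klf6, 179.6 of Klf4 and 157 of Zfp36.

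Fos and Jun genes were lower by less. Atf3 was at 94.5 against 687 scaled counts, 7.27-fold lower (6.63 to 7.99), Ier2 at 81.8 against 452, 5.53-fold lower (5.0 to 6.13), and Jun at 9.59 against 56.7, 5.91-fold lower (4.4 to 8.1). Fos was at 321 against 702, 2.19-fold lower (2.07 to 2.31), and its 357 CPM lay between lean (199) and obese (437). The Nr4a receptors, which antigen receptor signalling induces, did not go with them. Nr4a2 was the higher gene of the list, at 569.8 against 247, 2.3-fold higher (2.18 to 2.44), Nr4a3 was 1.45-fold higher (1.4 to 1.5) and Nr4a1 was 1.8-fold lower (1.7 to 1.9). Such genes also respond to handling of tissue and cells, which was not measured here. On the CPM scale, 20 of the 33 genes were below both 4-month adipose libraries in the library labelled Med23 KO, while the 10-month Foxp3Cre library was above both for 14 and below both for 12.

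Of 17 genes of SRF and the actin cytoskeleton, 6 were lower (35.3%, near the 34.9% of all genes) and 1 higher, with a median of -0.87. Tagln2, which stabilizes actin filaments, was at 124 against 1089.5 scaled counts, 8.8-fold lower (8.12 to 9.55). Cnn2, which encodes calponin 2, was 4.89-fold lower (4.33 to 5.53), and Vim, the intermediate filament vimentin, 3.69-fold lower (3.52 to 3.87). Actb, which encodes β-actin, was 2.22-fold lower (2.16 to 2.28). The higher gene, Acta2, rested on 18 reads against 1.

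The annexin and S100 calcium-binding genes with their galectin companions were lower as a list. Of 15, 11 were at least 2-fold lower (73.3% against 34.9% of all genes) and none higher, with a median of -1.67. Anxa1, an anti-inflammatory annexin, was at 3.72 (19 reads) against 2292 scaled counts, 617-fold lower (395 to 1024), and its 4.13 CPM was near the 6.7 of LN and far under lean (399) and obese (322). Lgals3, which encodes galectin-3, was at 12.3 against 641 scaled counts, 52-fold lower (40.6 to 67.8), again near LN in CPM (13.7 against 13). Anxa2 was 14.9-fold lower (12.4 to 18). The abundant members were lower by less, with S100a6 4.94-fold lower (4.67 to 5.23), Lgals1 3.68-fold lower (3.52 to 3.86) and S100a10 2.55-fold lower (2.47 to 2.64).

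**Figure D3:**
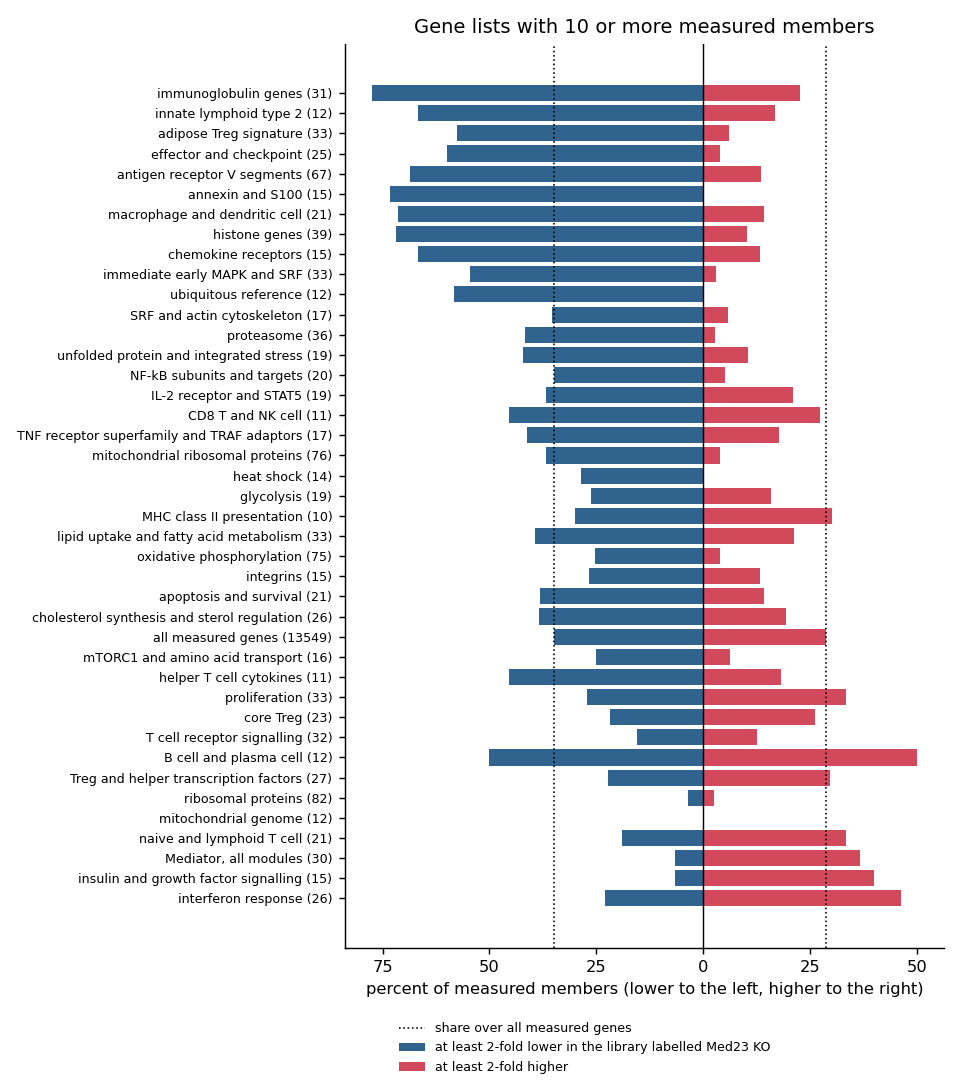
Percent of measured members at least 2-fold lower (left) and higher (right) in the library labelled Med23 KO, for the gene lists with 10 or more measured members, in order of their median log2 ratio, with the number of members in brackets and dotted lines at the shares over all measured genes (34.9% and 28.6%). The adipose Treg signature (19 of 33 lower), annexin and S100 (11 of 15) and chemokine receptor lists (10 of 15) reach beyond the left line, while ribosomal proteins (3 of 82 lower) and the interferon response (12 of 26 higher) do not.

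Genes of lipid handling went both ways. The 33 measured genes of lipid uptake and fatty acid metabolism had a median of -0.38. Of them, 7 were higher (21.2% against 28.6% of all genes) and 13 lower (39.4% against 34.9%). Several enzymes of mitochondrial fatty acid oxidation were low. Acaa2, the last enzyme of the β-oxidation cycle, had no read against 431, at least 84.5-fold lower. Acadvl, the very-long-chain acyl-CoA dehydrogenase, had no read against 335, at least 65.6-fold lower, but was also listed at 0 in lean and in LN. Acadl, its long-chain relative, was at 8.22 against 108 scaled counts, 13.2-fold lower (9.69 to 18.4), and at 9.14 CPM against 71.9 to 97.7 in the other libraries. Acadm, the medium-chain enzyme, went the other way at 61.4 against 12.5, 4.9-fold higher (3.93 to 6.15), and Cpt1a, the gate of fatty acid entry, was level at 58.5 and 57.2. Fatty acid synthesis was split too. Elovl6, a fatty acid elongase, was at 134 against 52.4, 2.55-fold higher (2.26 to 2.88), and the desaturase gene Scd2 had 85 reads against none, at least 48.2-fold higher. Fasn, the fatty acid synthase, was at 8.61 against 27.7, 3.22-fold lower (2.33 to 4.55).

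Of 26 genes of cholesterol synthesis and sterol regulation, 5 were higher and 10 lower, and the median of -0.25 became 0.04 with equal totals. Sc5d, a late enzyme of the pathway, had no read against 1748, at least 343-fold lower. Hmgcs1, which makes HMG-CoA, had 2 reads against 365, a ratio of 107 (29.5 to 889), and Idi1 was 4.04-fold lower (3.58 to 4.59). Dhcr7, the last step to cholesterol, went the other way with 94 reads against 3, a ratio of 53.3 (17.7 to 263). The list had no shared direction.

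The 15 measured genes of insulin and growth factor signalling had a median of 0.63. Of them, 6 were higher (40% against 28.6% of all genes) and 1 lower (6.67% against 34.9%). Insr, the insulin receptor, was at 41.7 against 8.97 scaled counts, 4.65-fold higher (3.57 to 6.1). Igf1r, the receptor of insulin-like growth factor 1, was 10.1-fold higher (5.42 to 20.4) at low values (13.9 against 1.38). Downstream, the kinase genes Pdpk1 (107 against 20.8) and Akt2 (56.5 against 11.6) were 5.14-fold higher (4.34 to 6.12) and 4.87-fold higher (3.87 to 6.17). Gsk3b was 3.12-fold higher (2.75 to 3.54), and Foxo3, a factor that insulin signalling inhibits, was the lower one, 3.44-fold lower (2.37 to 5.14). In CPM the control was the low library for Insr (8.08), Akt2 (10.5), Pdpk1 (18.8) and Gsk3b (39.6). The library labelled Med23 KO had 46.4, 62.9, 119 and 152, and lean had 91.6, 64.6, 96.4 and 146. Over the 15 genes, the library labelled Med23 KO was above both 4-month adipose libraries for 5 and below both for 4. The 10-month Foxp3Cre library was above both for 4 and below both for 8.

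Glycolysis and mTORC1 genes stood nearer to the background. Of 19 glycolysis genes, 3 were higher and 5 lower, with a median of -0.48. Aldoa was at 65.9 against 412 scaled counts, 6.24-fold lower (5.58 to 7.0), Pgk1 was 4.06-fold lower (3.52 to 4.71) and Ldha, lactate dehydrogenase A, 2.91-fold lower (2.75 to 3.07). Pfkl and Hk1, of the first steps, were 3.79-fold higher (2.57 to 5.69) and 2.35-fold higher (1.88 to 2.94). Of 16 genes of mTORC1 and amino acid transport, 1 was higher and 4 lower, and the median of -0.12 turned to 0.18 with equal totals. Rheb, the GTPase that activates mTORC1, was 2.37-fold lower (2.23 to 2.52).

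Mitochondrial genes encoded in the nucleus were seldom higher, and their share of lower genes was below or near the 34.9% of all genes. Of 75 genes of oxidative phosphorylation, 3 were higher and 19 lower (25.3%), with a median of -0.33, and of 76 mitochondrial ribosomal protein genes, 3 were higher and 28 lower (36.8%), with a median of -0.59. Sdhb, a subunit of complex II, was at 41.9 against 294 scaled counts, 7.02-fold lower (6.11 to 8.11), Uqcrc2 of complex III was 6.6-fold lower (5.22 to 8.44) and Atp5b of ATP synthase 3.83-fold lower (3.56 to 4.13). Mrpl39 had no read against 468, at least 91.7-fold lower, and Mrpl4 was 43.7-fold lower (24.3 to 87.8). None of the 12 measured genes of the mitochondrial genome passed 2-fold, with a median of 0.33, mt-Nd2 at 1986 against 1075 and mt-Co1 at 3079.5 against 5037. Of the cytosolic ribosomal proteins, 2 of 82 were higher and 3 lower, with a median of 0.25, so nearly all lay within 2-fold. Rps18 was 2.3-fold higher (2.21 to 2.4) and Rps12 2.28-fold higher (2.13 to 2.43).

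The Mediator complex itself leaned up. Of 30 measured subunits, 11 were at least 2-fold higher (36.7% against 28.6% of all genes) and 2 lower (6.67% against 34.9%), with a median of 0.57. The module that carries the kinase held the largest ratios, with 5 of 7 higher, none lower and a median of 1.17. Med12, which activates that kinase, was at 39.1 against 7.59 scaled counts, 5.16-fold higher (3.88 to 6.92), its relative Med12l was 11.9-fold higher (6.63 to 23.2), and the kinase genes Cdk8 and Cdk19 were 2.75-fold higher (2.34 to 3.23) and 2.3-fold higher (1.96 to 2.7).

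In the tail, the module of Med23, 3 of 8 subunits were higher and 1 was lower, with a median of 0.90. Med15 was at 81.8 against 30.5 scaled counts, 2.68-fold higher (2.3 to 3.14), Med27 was 2.98-fold higher (2.32 to 3.85) and Med28 2.26-fold higher (2.07 to 2.47). Med24, which binds Med23 in the tail, was at 80.0 against 42.4, 1.89-fold higher (1.63 to 2.18). Med16 was the lower one, listed at 0 against 1.84. In the head 3 of 7 were higher, Med17 among them (2.33-fold higher (1.97 to 2.76)), and in the middle none of 8 was higher and 1 was lower, with the scaffold subunit Med14 at 225 against 141. In CPM the 10-month Foxp3Cre library was below both 4-month adipose libraries for 16 of the 30 subunits and the library labelled Med23 KO above both for 16.

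Interferon response genes leaned up. Of 26 measured, 12 were higher (46.2% against 28.6% of all genes) and 6 lower, with a median of 0.70. Ifit1 was at 28.2 against 1.5 scaled counts, 18.8-fold higher (10.7 to 36.2), Ifit2 had 182 reads against none, at least 103-fold higher, and Usp18, which restrains the receptor, was 21.5-fold higher (12.5 to 40.1). Ifih1, the RNA sensor MDA5, was 6.97-fold higher (5.75 to 8.52). The response was not uniform. Mx1 had no read against 162, at least 31.7-fold lower, and Isg15 was 2.41-fold lower (1.84 to 3.19). In CPM, 14 of the 26 genes were lower in 10-month Foxp3Cre than in both 4-month adipose libraries, and 5 were higher. The library labelled Med23 KO was above both for 7 genes and below both for 9, so it was not raised against the 4-month libraries.

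Cell cycle genes had no shared direction. Of 33 measured proliferation genes, 11 were higher and 9 lower, and the median of -0.03 turned to 0.27 with equal totals. Mki67, the marker of cycling cells, was level at 290.0 and 276 scaled counts, and so was Top2a at 169.6 and 173. Ccne2, a cyclin of entry into S phase, was 3.32-fold higher (2.91 to 3.79) and Mcm4, of the replicative helicase, 2.76-fold higher (2.47 to 3.09), while Pcna was at 354 against 481. Stmn1, a microtubule regulator, was at 19.6 against 379, 19.4-fold lower (15.9 to 23.9), and the mitotic kinase gene Aurkb had 3 reads against 276, a ratio of 54.1 (18.3 to 264). Of 39 histone genes, 4 were higher (10.3% against 28.6% of all genes) and 28 lower (71.8% against 34.9%), with a median of -1.51. In the library labelled Med23 KO 20 were listed at 0, and many of these had low scaled counts in Foxp3Cre. Only 12 coding histone genes had a mean of 10 or more. Relative to the medians of their bins of exonic length, 3 of these 12 were higher and 4 lower. Hist1h2bc had no read against 621, at least 122-fold lower, and the linker histone Hist1h1c was 20.3-fold lower (13.5 to 31.8). Most histone transcripts lack a poly(A) tail, and whether the libraries captured them alike was not tested.

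Stress and protein turnover genes were near all measured genes in their share of lower genes (34.9%), with few higher ones. Many proteasome subunits had a mean of 100 or more, where the background share of lower genes was 19.7%. Of 36 proteasome subunits, 15 were lower (41.7%) and 1 higher, with a median of -0.82, Psmd13 being 7.32-fold lower (5.91 to 9.15) and Psmc2 5.0-fold lower (4.38 to 5.74). Of 19 genes of the unfolded protein and integrated stress responses, 8 were lower (42.1%) and 2 higher, with a median of -0.81. Xbp1, the main factor of the unfolded protein response, was at 65.2 against 318 scaled counts, 4.88-fold lower (4.35 to 5.48), and Herpud1 was 6.64-fold lower (5.54 to 8.02). Of 14 heat shock genes, 4 were lower (28.6%) and none higher, with a median of -0.56, led by Hspa1a with no read against 58. Of 21 apoptosis genes, 3 were higher (14.3%) and 8 lower (38.1%). The death receptor Fas was at 41.9 against 283, 6.76-fold lower (5.88 to 7.81), and the survival gene Bcl2l1 5.38-fold lower (4.28 to 6.85), so both arms held lower genes.

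Genes of T cell receptor signalling stayed close to level, with 4 of 32 higher, 5 lower and a median of 0.11. Prkcq, the kinase PKCθ, was at 225 against 45.7 scaled counts, 4.92-fold higher (4.39 to 5.53), and Cblb, a ubiquitin ligase that damps the receptor, was 2.53-fold higher (2.34 to 2.74). Malt1 was 4.25-fold lower (3.8 to 4.78) and Cd247, the ζ chain, 3.59-fold lower (3.1 to 4.17). Of 19 genes of the IL-2 receptor and STAT5, 4 were higher and 7 lower, with a median of -0.70, Socs3 among the higher (4.86-fold higher (4.25 to 5.57)). Of 17 genes of the TNF receptor superfamily and its TRAF adaptors, 3 were higher and 7 lower, with a median of -0.68. Tnfrsf25, the receptor DR3, was 8.05-fold lower (6.39 to 10.3).

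Markers of other cells differed between the libraries. All 5 measured erythroid genes were higher in the library labelled Med23 KO, with a sum of 8041 scaled counts against 1334, and Hbb-bs, the adult β-globin, was at 3845 against 559.5, 6.87-fold higher (6.66 to 7.09). The 21 measured macrophage and dendritic cell genes went the other way, with a sum of 522 against 1074. Of them, 15 were lower (71.4% against 34.9% of all genes) and 3 higher (14.3% against 28.6%). Lyz2, which encodes lysozyme, was at 47.9 against 529.5, and Mrc1, the mannose receptor of tissue macrophages, at 0 against 28.3. The complement gene C1qb was at 22.5 against 62.5. Retnla, made by alternatively activated macrophages, was against the list at 232 against 10.4, 22.5-fold higher (18.1 to 28.1), and its CPM was 759 in lean and 701 in obese. In CPM the macrophage list summed to 581 in the library labelled Med23 KO against 968 in 10-month Foxp3Cre, against 4929 in lean and 10676 in obese.

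Plasma cell RNA was higher in the control. Igkc, the κ light chain constant gene, was at 688 against 4151 scaled counts, 6.03-fold lower (5.83 to 6.25), Jchain was 2.01-fold lower (1.93 to 2.1), and Ms4a1, a defining B cell gene, was low in both libraries at 6.46 against 0. Of 31 genes picked by immunoglobulin names, 24 were lower (77.4% against 34.9% of all genes) and 7 higher. Among the higher ones was Ighmbp2 (26.4 against 4.83 scaled counts), which is not an immunoglobulin gene. Different V segments led each library. Igkv3-4 had 5945 reads in Foxp3Cre and none in the library labelled Med23 KO, and Igkv6-32 had 1143 reads in the library labelled Med23 KO against none in Foxp3Cre. Of 67 T cell receptor V segments, 41 were listed at 0 in the library labelled Med23 KO against 5 in Foxp3Cre. Over all 13549 measured genes the same counts were 2765 and 1957. The library labelled Med23 KO also held fewer listed reads (4595046 against 9650769). Many of the 41 segments had low scaled counts in Foxp3Cre, such as Trav1 at 2.07, although Trbv16 was at 64.9. What depth adds to the segments listed at 0 was not tested.

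The 12 measured genes of type 2 innate lymphoid cells share 6 with the adipose Treg signature (Il1rl1, Gata3, Klrg1, Il5, Areg and Rora). Of the 12, 8 were lower (66.7% against 34.9% of all genes) and 2 higher. Il9r, a gene of those cells, was at 0 against 17.3 scaled counts, Kit at 0 against 2.65, and Il17rb at 14.9 against 0. Calca, which encodes the peptide CGRP, was at 92 against 1321, 14.4-fold lower (13.1 to 15.8). Of 11 measured CD8 and NK cell genes, 3 were higher (27.3%) and 5 lower (45.5%), with a median of -0.70. Their sum was nevertheless 789 against 585, led by Ccl5 (471 against 200) and Nkg7 (202 against 103). Cd8b1 was at 54 against 2.53 and Cd8a at 0 against 7.82. Fibroblast and mesothelial markers reached the minimum for 3 genes, with Dcn at 0 against 53.3, Col1a2 at 0 against 1.04 and Fn1 at 28.4 and 27.4. Of 15 fat cell genes 5 were measured, 3 of them higher and 1 lower, with a sum of 106 against 66.7. Cidec, a lipid droplet protein of fat cells, was at 13.3 against 0, while the defining genes Adipoq and Plin1 were at 0 in both libraries. The part that other cells take in the differences of Treg genes was not tested. Leaving out all genes of the other cell type lists left 3846 genes higher and 4678 lower.

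Genes that set lean adipose Tregs apart from LN Tregs were followed here, since neither of those libraries enters the comparison. Of 2047 genes with 4-fold or more in lean adipose over LN, 604 (29.5%) were higher and 799 (39.0%) lower in the library labelled Med23 KO, with a median of -0.25. Of 1810 genes with 4-fold or more in LN over lean adipose, 447 (24.7%) were higher and 783 (43.3%) lower, with a median of -0.54, and of the 7084 genes between, 1471 (20.8%) were higher and 2145 (30.3%) lower, with a median of -0.18. Adipose-high and adipose-low genes were thus both lower more often than the genes between. At a mean of 100 or more, the adipose-high group held 73 of 245 lower (29.8%) and 35 higher, the adipose-low group 21 of 121 lower (17.4%) and 17 higher, and the genes between 309 of 1694 lower (18.2%) and 168 higher. At these higher values, then, the share of lower genes was largest in the adipose-high group. Its share of higher genes was the largest too, at 14.3% against 14.0% in the adipose-low group and 9.92% between. The difference of these shares was not tested.

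Genes past 2-fold were also placed against the 4-month adipose libraries, which differ from the 10-month ones in age and in Xist. Of 2326 genes at 10 or more and at least 2-fold higher in the library labelled Med23 KO, 1103 (47.4%) had only that library outside the range of the 4-month adipose libraries in CPM, 350 (15.05%) had only 10-month Foxp3Cre outside it on the opposite side, and 828 (35.6%) had both. Of 2722 lower genes, the same counts were 1067 (39.2%), 687 (25.2%) and 832 (30.6%). A ratio in this comparison is thus often shared with, and in part set by, the control library.

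The 15 lowest genes were the same at a minimum of 10 and of 100 scaled counts. Besides Cxcl3, Ccr1, Anxa1, Plin2, Cxcl5, Pparg, Ier3, Sc5d, Egr1, Klrg1 and Cxcl2 they were Sertad1, a cell cycle cofactor with 1 read against 2147, Psmg2, a proteasome assembly chaperone with 1 read against 1104, Fastkd3 with none against 1228, and Ceacam12 with none against 1187. All 15 were below both 4-month adipose libraries in the library labelled Med23 KO, and all 15 were above 0 in both of those libraries. In 10-month Foxp3Cre 14 of the 15 were above both.

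The 15 highest genes at 10 or more were all listed at 0 in Foxp3Cre, where the tables put any scaled count under 1, so a few reads could still be recovered for some. After Ifng came Nek8 (417 reads against 7), Zfp808 (408 against 3), Lax1, an adaptor that damps lymphocyte receptor signalling (379 against none), Rnf128, the anergy-related ubiquitin ligase GRAIL (350 against none), and Rras2, a Ras-related GTPase (338 against none). Rnf128 was at 76.2 CPM in the library labelled Med23 KO against 99.5 in lean and 27.5 in obese, and so was within their range. The other genes were Ube2z, Tctn1, Mical3, Ice2, Fads1, Klre1, Pafah2, Fxr2 and Fut11, from 325 to 258 reads in the library labelled Med23 KO and at most 7 in Foxp3Cre. Of the 15, 12 were above 0 in both 4-month adipose libraries.

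At 100 or more the highest genes had reads in both libraries. After Retnla they were Mex3b, which encodes an RNA-binding ubiquitin ligase (142 against 6.9 scaled counts), Anapc5, a subunit of the anaphase-promoting complex (334 against 18.2), Zmiz2, Neil1, a DNA glycosylase, Ttn, Dck, the deoxycytidine kinase of nucleotide salvage, Skiv2l, Odf2, Zyg11b, Papolg, Cip2a, Hbb-bt, Hbb-bs and Osbp. Anapc5 was 18.4-fold higher (15.6 to 21.8) and Dck 11.9-fold higher (9.69 to 14.8). In 10-month Foxp3Cre 13 of these 15 were below both 4-month adipose libraries, and in the library labelled Med23 KO 14 were above both.

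The ratio ran with the length of the gene. Coding genes whose mean reached 10 were put in 5 bins of exonic length, from 66 to 2634 bases in the shortest and from 8251 to 123179 in the longest. The share at least 2-fold lower was 37.9%, 30.6%, 25.1%, 21.6% and 17.1% from the shortest to the longest bin, and the share higher was 10.5%, 18.2%, 22.9%, 22.5% and 25.1%. The bin medians went from -0.58 to 0.21. RNA from outside coding genes also took a larger share in the library labelled Med23 KO, with 2.90% of scaled counts in long intergenic RNAs against 1.94%, 1.58% in transcripts the annotation holds as unproven against 0.574%, and 0.511% in processed pseudogenes against 0.285%. Whether length, RNA quality or library preparation takes part in any difference was not tested.

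**Figure D4:**
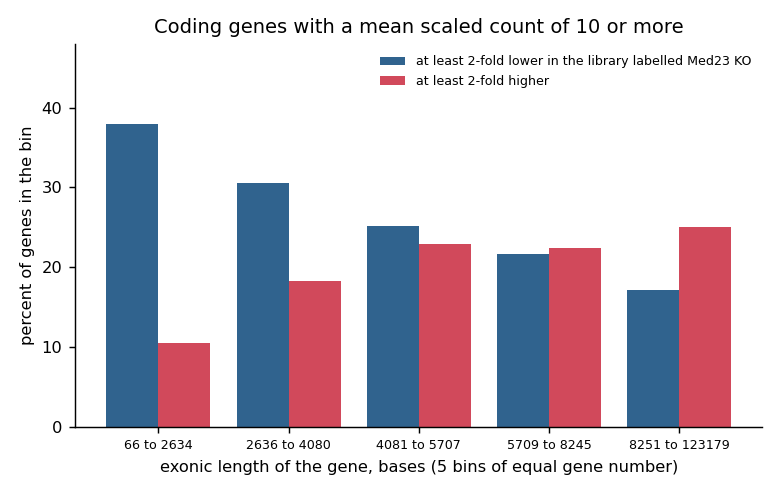
Percent of coding genes at least 2-fold lower (blue) and at least 2-fold higher (red) in the library labelled Med23 KO, in 5 bins of exonic length with equal gene numbers, among genes with a mean scaled count of 10 or more. The share of lower genes goes from 37.9% in the shortest bin to 17.1% in the longest, and the share of higher genes from 10.5% to 25.1%.

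When each ratio was taken relative to the median of its length bin, 30 of the 33 lists with 10 or more coding genes at this mean kept their side of level. The adipose Treg signature went from -1.67 over its 32 coding genes with a mean of 10 or more to -1.32, chemokine receptors from -2.57 to -1.98, annexin and S100 genes from -1.77 to -1.19, immediate early genes from -1.03 to -0.73, and the interferon response from 0.96 to 1.15. Ribosomal proteins went from 0.25 to 0.81, the proteasome from -0.82 to -0.32 and histone genes from -0.95 to -0.45. The 3 lists that changed side were oxidative phosphorylation, from -0.32 to 0.19, helper T cell cytokines, from -0.08 to 0.23, and apoptosis genes, from -0.21 to 0.04. Among lists with fewer genes, MHC class II presentation went from -0.44 to 0.14.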

How the data were processed

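Messenger RNA of sorted mouse Tregs was sequenced in 5 libraries, 1 per group, from 3 ug of total RNA each, per the labels' protocols. Samples were grouped by title, tissue, age and genotype. TopHat2 2.0.9, Bowtie2 2.0.6 and the mm8 build are listed, without their roles, per the submitters' processing notes. The sources used here do not say how reads were counted, with which annotation and strand setting, or how counts were normalized (not given). Reads of overlapping, antisense and near-identical genes may thus have been split in ways that could not be checked. The authors deposited 3 tables of 2 libraries each, holding for each gene ID the scaled counts of both libraries, which are the signal analysed, and a log2 fold change with its p-value and q-value.

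From the values, every nonzero scaled count was a whole multiple of 1 step per library within 0.01 read (0.196 in the library labelled Med23 KO, 0.115 in Foxp3Cre), so 1 step is 1 read. The deposited tables list any scaled count under 1 as 0. The reads behind such a 0 were recovered from the authors' log2 fold change, in which 0.5 stands for no reads. Because listed values are cut at 1, no count model was fitted, although the design foresaw counts. The authors' table marks 2567 genes as higher and 2546 as lower by a rule on the fold and the q-value, which sets 2 libraries and not 2 conditions against each other. For this reason p-values are left out.

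Ratios are log2((value + 1)/(value + 1)), which understates low genes. Genes past 2-fold on this scale were counted, also with a pseudocount of 5, a minimum of 10, equal totals, median centring and without predicted genes, pseudogenes and receptor segments. Folds of single genes are ratios of scaled counts with exact 95% Clopper-Pearson intervals. These cover counting error only, because without molecular identifiers several reads can come from 1 molecule. Folds against no reads use a floor of 3 reads per library. For CPM, each library's reads were divided by its own sum of listed reads. Symbols, lengths and gene types came from GENCODE M21 (13496 of 13549 measured IDs matched), and promoters from RefSeq. Where IDs shared a symbol, the one with more reads was kept.

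The members and the 50 gene lists were chosen with earlier results of these data known. Named genes were Med23, the 15 highest and 15 lowest ratios at 10 or more and at 100 or more (without predicted genes, small RNAs and receptor segments), the members of each list farthest from level (up to 6), and Batf, Ccr7, Ctla4, Foxp3, Gata3, Il10, Il1rl1, Il2ra, Irf4, Klf2, Klrg1 and Pparg. Other list members and marker genes were named after their values were seen. Some lists appear only in the plot of list shares. Calculations used Python 3.11.15, matplotlib 3.10.9, pandas 2.3.3, scipy 1.17.1 and numpy 2.4.6 and were tested on simulated data.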

Additional observations from a re-analysis of the deposited data

How the results depend on the processing

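No paired analysis was possible because each group had 1 library, and for the same reason no replicate could be left out. The counts of 3877 higher and 4730 lower genes became 2515 and 3149 with a pseudocount of 5, and 2326 and 2722 at a minimum of 10 in the higher library. Settings added after seeing the data gave 1920 and 1965 for genes above 0 in both libraries, and 221 and 407 at a mean of 100 or more. Fewer genes enter the last 3 settings, and a larger pseudocount shrinks the ratios of low genes. Equal totals (4501 and 4295), median centring (4193 and 4345), leaving out predicted genes and receptor segments (2648 and 3699), a counting interval that excludes 1 (3206 and 3659) and leaving out the lists of other cell types (3846 and 4678) stayed within 1.5 times. The median of integrins turned from -0.30 to 0.0015 with equal totals. Among genes above 0 in both libraries, the median of fibroblast genes turned from -1.03 to 0.0499 and that of endothelial genes from 2.90 to -0.96, each over at most 3 genes. Medians of the B cell and plasma cell, cholesterol, cytokine, mTORC1, proliferation, apoptosis and nuclear RNA lists also changed sign under at least 1 setting. Depth limits the low genes most: a value listed at 0 can hold up to 5 reads in the library labelled Med23 KO and up to 8 in Foxp3Cre.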

Other observations

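Gene groups outside the comparisons above gave further values. Of 15 measured integrin genes, 2 were higher and 4 lower in the library labelled Med23 KO. Itgae, the CD103 chain that holds T cells in epithelia, was at 80.8 against 29.9 scaled counts, 2.7-fold higher (2.31 to 3.17), and Itga1, a collagen receptor chain of tissue-resident cells, had no read against 167, at least 32.7-fold lower. Itga4, of the receptor for VCAM-1, was at 375 and 398. Cd69, the early activation receptor that retains T cells in tissue, was at 268 against 1868, 6.96-fold lower (6.59 to 7.36), with 298 CPM against 414 in obese, 822 in lean and 1368 in LN.

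Among 10 measured genes of MHC class II presentation, 3 were higher and 3 lower. H2-Ab1 was at 7.24 against 78.4 scaled counts, 10.8-fold lower (7.78 to 15.5), and Cd74, the invariant chain, 2.63-fold lower (2.44 to 2.83). Their CPM of 70.7 and 415 in 10-month Foxp3Cre stood against 1305 and 3859 in obese. Genes often used as references were not level either. Of 12, 7 were lower and none higher, with a median of -1.08 that was -0.60 relative to the medians of their length bins. B2m, the MHC class I light chain, was 2.05-fold lower (2.03 to 2.07), Ppia 2.17-fold lower (2.13 to 2.21), and Tbp, which binds the TATA box, 6.43-fold lower (5.09 to 8.21).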
